A study of Mus musculus with 10 samples.

Results

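Gpr141, Arhgef37, Napsa and B3gnt5 are 4 genes that were chosen because they were far lower in F4/80+ macrophages of Ccr2 knockout tumours than in those of control tumours, and because they had been put beside the monocyte antigen gene Ly6c2 within each genotype. They are 4 of 55359 gene identifiers in the count tables and 4 of 14374 genes that passed the filter on low counts. All 4 passed that filter, Arhgef37 and B3gnt5 through the control libraries, since some knockout libraries held fewer than 10 of their counts. They were selected on the size of their fall and on their correlation with Ly6c2, so both are given below as a description and with no test. Within a genotype the values of Gpr141 and Ly6c2 ran in a similar order, largely through library 1 in controls, while Napsa and B3gnt5 had a negative correlation with Ly6c2 in controls and that of Arhgef37 was weak and changed sign with the library left out. The 4 genes are therefore called by their names here and not by a shared course with monocyte loss.

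The study sorted F4/80+ cells by flow cytometry from Braf-mutant melanomas that had regrown in male mice under daily Braf/Mek inhibitors, and sequenced their polyadenylated RNA. The 5 control libraries came from Ccr2RFP/+ mice, in which a red fluorescent protein allele stands beside 1 working allele of Ccr2, so control mice are heterozygous and not wild type, although their sample titles carry the letters WT. The 5 knockout libraries came from Ccr2 KO mice (Ccr2RFP/RFP, with no working allele) of the same sex, treatment and disease state. Both groups were treated with the inhibitors, and no untreated tumour was analysed here. Neither the age nor the strain of the mice, nor how many animals gave a library, is given in the sources used here. The labels do not say that each library came from its own animal, so spread and p-values describe these libraries, and part of it may be technical.

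Ccr2 is the chemokine receptor that lets classical monocytes leave the bone marrow and enter inflamed tissue, where they turn into macrophages. Classical monocytes of the mouse carry the surface antigen Ly6C, and Ly6c2 is one of the genes that encode it. The 4 genes play unlike parts in a cell. Gpr141 encodes a G protein-coupled receptor with no agreed ligand. Arhgef37 encodes a protein with the domain of Dbl-family exchange factors, which load small GTPases with GTP. Napsa encodes napsin A, an aspartic protease best known from lung and kidney epithelium, where it trims surfactant protein precursors. B3gnt5 encodes the glycosyltransferase that adds N-acetylglucosamine to lactosylceramide and so starts the lacto- and neolacto-series glycosphingolipids.

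The libraries held between 34639808 and 43360206 counts in genes, and between 96.2% and 96.5% of strand-assigned counts lay in the column used. Ccr2 itself stood at 59.0 to 177 CPM (the count scaled to the library's size) in the controls and at 3.23 to 6.28 CPM in the knockouts, so every library matched its genotype label. The macrophage genes Adgre1, which encodes F4/80, and Csf1r were present in all 10 libraries, at no less than 1562 and 2548 CPM. Among controls, library 3 resembled library 4 and library 1 resembled library 2 more than any other pair did, with a median chi-square per gene of 2.67 and 2.76. The next pair crossed the groups, control 3 with knockout 2 at 5.74, and the next pair of controls, 2 with 3, stood at 8.24. Values with each alike control pair summed to 1 library therefore stand beside the falls below. Of the 14374 genes tested with edgeR, 2204 had an unadjusted p under 0.05. At an adjusted p under 0.05, 78 (0.543%) were lower and 125 (0.87%) higher in knockouts. Every knockout library stood below every control library for 290 genes (2.02%). All 4 genes belong to that last group, which the choice on this contrast made likely.

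The promoters of Gpr141 and B3gnt5 are shown because, of the 4 genes, only these had a sequence among the promoters used. They are RefSeq sequences on GRCm38.p6, from 250 bases before to 50 bases after the gene start, at chr13:19824208-19824507 on the minus strand for Gpr141 and chr16:19759984-19760283 on the plus strand for B3gnt5, and 2 of the 4 genes matched the table. Capitals mark every match to the motifs searched.
Gpr141: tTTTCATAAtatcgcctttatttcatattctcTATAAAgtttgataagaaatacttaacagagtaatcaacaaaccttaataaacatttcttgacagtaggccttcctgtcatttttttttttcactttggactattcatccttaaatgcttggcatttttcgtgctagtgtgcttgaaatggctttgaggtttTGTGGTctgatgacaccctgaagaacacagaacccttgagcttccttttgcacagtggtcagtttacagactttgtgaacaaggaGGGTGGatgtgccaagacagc
B3gnt5: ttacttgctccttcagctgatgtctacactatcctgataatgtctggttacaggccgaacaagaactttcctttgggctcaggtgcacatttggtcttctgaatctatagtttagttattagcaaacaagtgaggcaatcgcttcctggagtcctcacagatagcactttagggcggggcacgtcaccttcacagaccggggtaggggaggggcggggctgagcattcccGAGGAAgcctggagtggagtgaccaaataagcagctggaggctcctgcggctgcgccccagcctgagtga
The motifs, read on both strands, were the PU.1 core GAGGAA, C/EBP as TTNCNNAA, AP-1 as TGANTCA, IRF as GAAANNGAA, RUNX as TGTGGT, KLF as GGGTGG, the CCAAT box by these letters, and the TATA box as TATAAA. Positions count from the gene start as base 1, with no base 0. Gpr141 matched C/EBP from base -249, TATAAA from -218, RUNX from -56 and KLF from base 30, and none of these matches overlapped another. B3gnt5 matched only the PU.1 core, from base -20. No motif was found in both windows. Among 32851 promoter windows of 300 bases, 28.3% held the PU.1 core, 40.7% C/EBP, 7.81% AP-1, 8.56% IRF, 16.8% RUNX, 31.5% KLF, 37.4% CCAAT and 13.6% TATAAA, so each match is common among promoters. The GC content was 37.3% for Gpr141 and 53.3% for B3gnt5, against a median of 52.7%.

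Ly6c2 (ENSMUSG00000022584), the reference for what follows, stood at 59.0, 91.3, 109, 86.4 and 80.0 CPM in control libraries 1 to 5 and at 1.21, 7.80, 8.41, 2.52 and 7.23 CPM in knockout libraries 1 to 5. Among the knockouts, libraries 1 and 4 were low and the other 3 lay close together. Ly6c2 has a near-identical copy, Ly6c1, and reads that fit both were not counted, so its level is uncertain. In a bulk library fewer monocytes and less Ly6c2 RNA per cell cannot be told apart, and the same holds for each gene below.

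**Figure D1:**
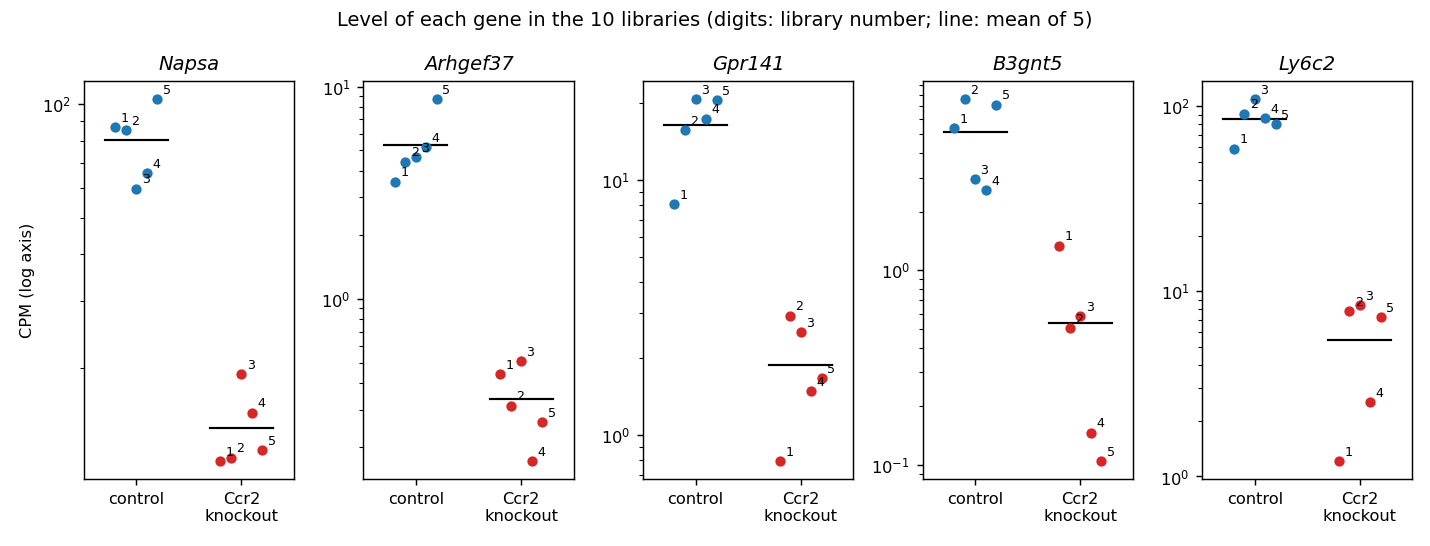
CPM on log axes of the 4 genes and Ly6c2 in each of 5 control (blue) and 5 Ccr2 knockout (red) libraries, with library numbers as digits and the group mean as a line. In every panel all knockout points lie under all control points, while the order of the libraries inside a group differs from gene to gene.

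Gpr141 (ENSMUSG00000053101, chromosome 13), the orphan receptor, stood at 8.04, 15.7, 20.7, 17.4 and 20.6 CPM in control libraries 1 to 5. In knockout libraries 1 to 5 it stood at 0.791, 2.94, 2.53, 1.49 and 1.67 CPM, from counts of 36, 122, 100, 61 and 64. Library 1 was the lowest of both groups, as it was for Ly6c2, and the lowest control stood 2.74 times above the highest knockout. The mean was 16.5 ± 5.19 CPM in controls and 1.88 ± 0.855 CPM in knockouts (SD, n = 5 each), 11.4% of control, with a log2 fold change of -3.13 (SE 0.37) and of -3.19 with the control pairs summed. The Gpr141 CPM was 0.191 ± 0.0443 of the Ly6c2 CPM in controls and 0.431 ± 0.184 of it in knockouts, with ranges that overlapped (0.136 to 0.257 and 0.231 to 0.655). Gpr141 kept a larger share of its control level than Ly6c2, which kept 6.38%, while in every knockout library the CPM of Gpr141 was the lower one. Its paralog Gpr141b had between 0 and 7 counts in any library and was not tested.

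Arhgef37 (ENSMUSG00000045094, chromosome 18), the exchange factor, stood at 3.56, 4.42, 4.66, 5.17 and 8.72 CPM in control libraries 1 to 5. In knockout libraries 1 to 5 it stood at 0.439, 0.313, 0.507, 0.171 and 0.261 CPM, which rest on 20, 13, 20, 7 and 10 counts. Control library 5 stood above the other 4, and the lowest control was 7.02 times the highest knockout, the widest gap of the 4 genes. The mean was 5.31 ± 2.0 CPM in controls and 0.338 ± 0.135 CPM in knockouts, 6.38% of control, with a log2 fold change of -3.96 (SE 0.36) and of -4.10 with the control pairs summed. By group means Arhgef37 thus kept the same share of its control level as Ly6c2 did, but not library by library. Its CPM was 0.064 ± 0.0263 of the Ly6c2 CPM in controls. In knockouts it was 0.114 ± 0.140 of it, from 0.0361 to 0.364, with library 1 the highest.

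Napsa (ENSMUSG00000002204, chromosome 7), the aspartic protease, stood at 86.8, 85.4, 59.7, 65.7 and 103 CPM in control libraries 1 to 5. In knockout libraries 1 to 5 it stood at 11.3, 11.6, 19.2, 15.2 and 12.1 CPM. Control libraries 3 and 4 were the low ones and knockout library 3 the high one, and the lowest control stood 3.11 times above the highest knockout. The mean was 80.1 ± 17.5 CPM in controls and 13.9 ± 3.37 CPM in knockouts, 17.3% of control, with a log2 fold change of -2.53 (SE 0.20) and of -2.59 with the control pairs summed. This was the smallest fall of the 4 and had the smallest standard error. Napsa stood at 1.0 ± 0.379 of the Ly6c2 CPM in controls and at 4.17 ± 3.45 of it in knockouts, where the ratio ran from 1.48 to 9.36.

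B3gnt5 (ENSMUSG00000022686, chromosome 16), the glycosyltransferase, stood at 5.36, 7.58, 2.94, 2.57 and 7.12 CPM in control libraries 1 to 5. In knockout libraries 1 to 5 it stood at 1.34, 0.505, 0.583, 0.147 and 0.104 CPM, which rest on 61, 21, 23, 6 and 4 counts. Controls 3 and 4 were the low ones, and the knockouts spanned a 12.8-fold range with library 1 at the top, the library in which Ly6c2 and Gpr141 were lowest. The mean was 5.12 ± 2.31 CPM in controls and 0.536 ± 0.497 CPM in knockouts, 10.5% of control, with a log2 fold change of -3.24 (SE 0.64) and of -3.32 with the control pairs summed. Without knockout library 1 the log2 fold change was -3.92, a fall more than 1.5 times as deep. B3gnt5 had the narrowest gap of the 4 genes, with the lowest control 1.92 times the highest knockout. It stood at 0.0639 ± 0.0326 of the Ly6c2 CPM in controls and at 0.263 ± 0.473 of it in knockouts, from 0.0144 to 1.11.

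Per kilobase of exon, with exon lengths from GENCODE M21, Napsa was the most abundant of the 4 genes in both groups. In controls the order by CPM per kilobase was Napsa at 30.1 ± 6.58, Gpr141 at 2.76 ± 0.868, B3gnt5 at 0.984 ± 0.444 and Arhgef37 at 0.904 ± 0.340. In knockouts the order was the same, with 5.22 ± 1.27, 0.315 ± 0.143, 0.103 ± 0.0956 and 0.0576 ± 0.0230. B3gnt5 and Arhgef37 did not differ beyond their spread in either group, and the ranges of Gpr141 and B3gnt5 overlapped in both. The level of Napsa in controls was close to that of Ly6c2, at 31.1 ± 6.68 CPM per kilobase, and in knockouts Napsa stood above Ly6c2, at 1.98 ± 1.21.

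The correlation with Ly6c2 was taken on log2 CPM over the 5 libraries of 1 genotype, so each r is a description of 5 points. Since control library 1 resembled 2 and 3 resembled 4, an r in controls rests on fewer than 5 distinct profiles. No r was taken with these pairs summed. Gpr141 had r = 0.85 in controls and r = 0.91 in knockouts, values that 1.93% and 1.12% of all tested genes reached or passed. Library 1 carried much of it in controls: without control library 1 the r of Gpr141 was 0.18, while without knockout library 1 it was 0.73. Arhgef37 had r = 0.22 in controls and 0.08 in knockouts, and it swung with single libraries: it was -0.70 without control library 1 and 0.77 without control library 5, and -0.33 without knockout library 4 and 0.83 without knockout library 1. Napsa had r = -0.59 in controls, so it was lower where Ly6c2 was higher, and r = 0.31 in knockouts, where it turned to -0.11 without library 1 and -0.13 without library 3. B3gnt5 had r = -0.37 in controls and -0.38 in knockouts, and without knockout library 1 it turned to 0.54. The median r of all tested genes was -0.02 in controls and 0.03 in knockouts, and the other 29 genes of a list of classical monocyte markers had a median r of -0.28 and 0.25.

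**Figure D2:**
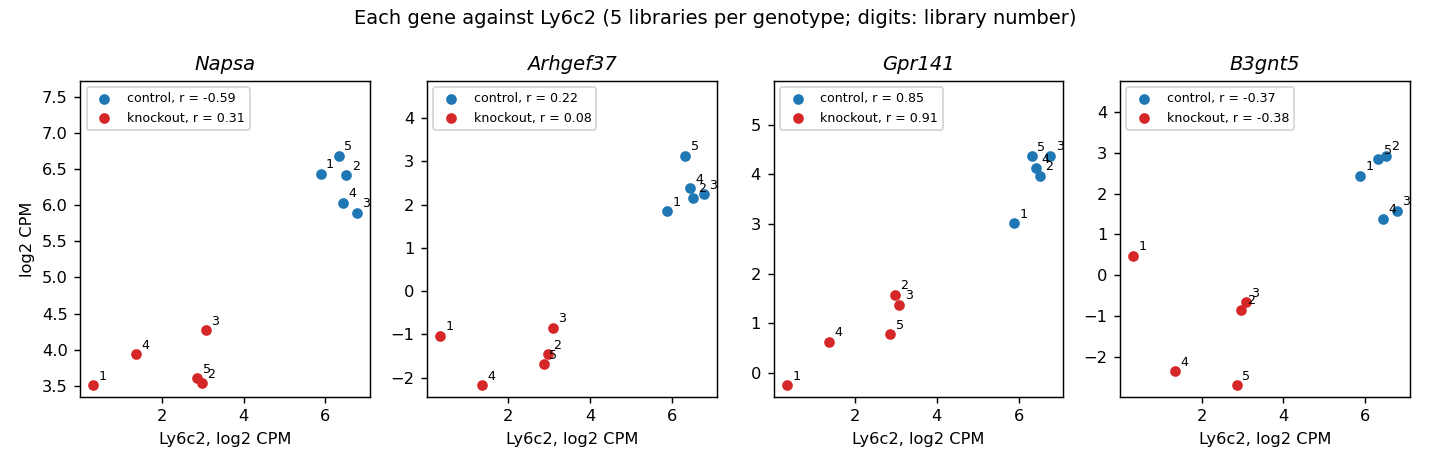
Log2 CPM of each gene against log2 CPM of Ly6c2, with 5 control libraries in blue, 5 knockout libraries in red and library numbers as digits; legends give Pearson's r within a genotype. The groups stand apart in every panel, and inside a genotype r is 0.85 and 0.91 for Gpr141, weakly positive for Arhgef37 (0.22 and 0.08) and negative in controls for Napsa and B3gnt5.

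The 4 genes differed in which of the others they moved with, again as a description of 5 libraries, with the alike pairs among the controls. These r were not taken with 1 library left out and not set beside those of all tested genes. Gpr141 moved with Ccr2 in controls, with r = 0.94, and so did Arhgef37, with r = 0.84, against -0.13 for Napsa and -0.23 for B3gnt5. Napsa and B3gnt5 moved together in controls (r = 0.90, Spearman rank correlation 0.6), both low in the alike libraries 3 and 4, and not in knockouts (r = -0.11). Arhgef37 and B3gnt5 moved together in knockouts (r = 0.80), where they rest on as few as 7 and 4 counts, and hardly in controls (r = 0.21). Arhgef37 and Gpr141 had r = 0.69 in controls and 0.02 in knockouts. No pair of the 4 had an r of that size in both genotypes.

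Likeness over all 10 libraries was measured as the mean absolute difference between log2 CPM profiles, each centred on its own mean, so that genes with a like size of fall and a like order of libraries stand close. By this measure Gpr141 and Arhgef37 were the closest pair of the 4, at 0.59, and Gpr141 and B3gnt5 the farthest, at 1.02. The closest genes to Gpr141 among 10945 genes averaging 2 CPM or more were Ly6i, a relative of Ly6c2, at 0.34, the coagulation factor gene F7 at 0.47, the integrin gene Itgb7 at 0.52, Plac8 at 0.54 and the dipeptidyl peptidase gene Dpp4 at 0.55. The closest to Arhgef37 were Ccr2 at 0.48, Mcemp1 at 0.54, Gpr141 at 0.59, and F10 and Ly6i at 0.62 each. Napsa stood nearest to Mcemp1 and Rhou, both at 0.30, then to Tmem154 at 0.36 and to the keratin gene Krt80 and the lipoprotein receptor gene Lsr, both at 0.37. Mcemp1 at 3.29 CPM, Rhou at 4.16 and Lsr at 16.2 were, like Napsa, at their knockout maximum in library 3. Tmem154 was highest in knockout library 5, at 2.30 CPM, and Krt80 in knockout library 4, at 12.5 CPM. All were picked for likeness to Napsa over these same libraries, so a shared high library is partly built in.

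**Figure D3:**
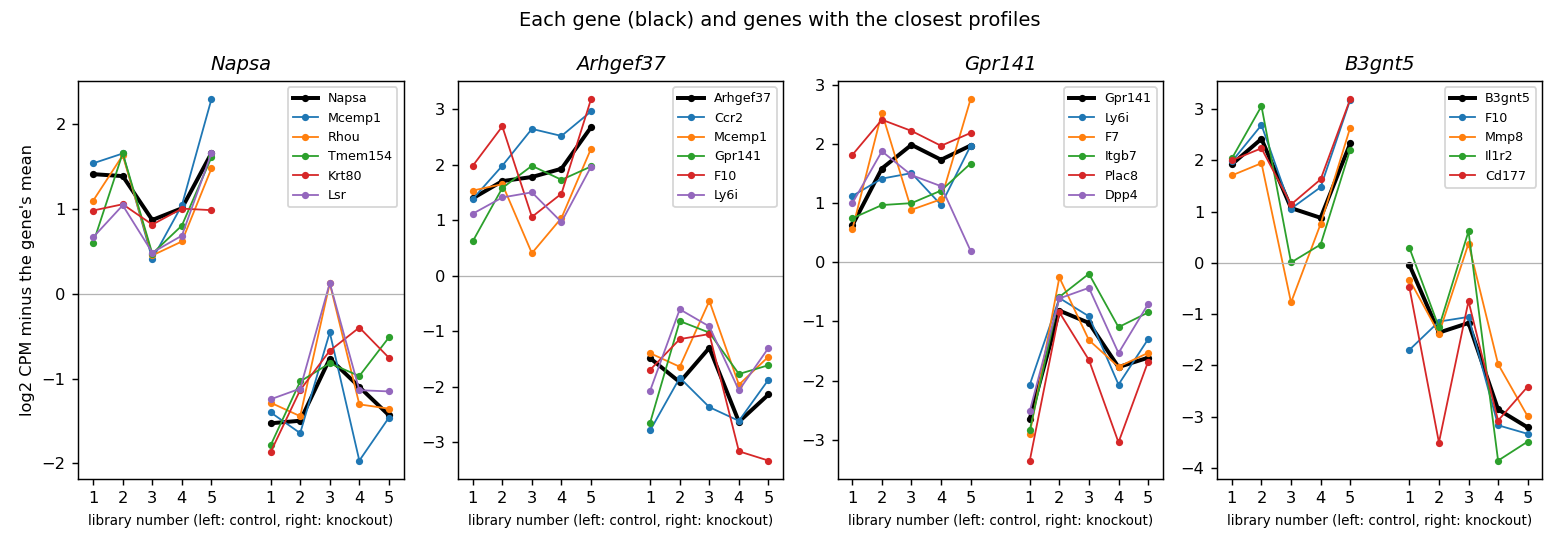
Log2 CPM minus the gene's mean over 10 libraries, for each gene (black) and the closest genes named in the text (colours), with control libraries 1 to 5 on the left and knockout libraries 1 to 5 on the right of each panel. The drop from left to right is shared, and the order inside the groups differs between panels, with B3gnt5 lowest in knockout libraries 4 and 5.

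Among the closest genes to B3gnt5 were F10 at 0.42, the neutrophil collagenase gene Mmp8 at 0.59, and the decoy receptor gene Il1r2 and the neutrophil glycoprotein gene Cd177 at 0.60 each. F10 and Cd177 stand in the list of classical monocyte markers and were called lower (edgeR adjusted p = 0.0081 and 0.0244, for Cd177 up to 0.0648 with 1 library left out). Mmp8 and Il1r2 were not called (0.126 and 0.199) and stand in a list of neutrophil markers, so the values of that list are given. Its summed level was 610, 588, 226, 340 and 942 CPM in control libraries 1 to 5. In knockout libraries 1 to 5 it was 345, 159, 282, 165 and 189 CPM. Controls 3 and 4 were low for the neutrophil sum as for B3gnt5, and knockout library 1 was the highest knockout for both. Among knockouts B3gnt5 was lowest in library 5 and the neutrophil sum in library 2. Low values in controls 3 and 4 were not particular to neutrophil markers. The glycosphingolipid synthesis genes summed to 1167 and 1170 CPM there and to 1407 to 1458 CPM in the other controls. B and plasma cell markers went the other way, at 327 and 385 CPM against 156 to 211 CPM. All 14 tested genes of the 20 neutrophil markers had a negative log2 fold change, with a median of -2.06. With edgeR or limma-voom 0 passed the test, while DESeq2 called 5 lower. An unadjusted p under 0.05 was found for 8 of them, against 2204 of all 14374 tested genes. Of the defining markers, Ly6g had 9, 13, 0, 0 and 8 counts in control libraries 1 to 5, 2 counts in knockout library 1 and 0 in the other 4 knockouts. S100a8 was at 0 in knockout library 5 and S100a9 at 0 in knockout library 4. The part of neutrophil RNA in the fall of B3gnt5 was not tested.

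**Figure D4:**
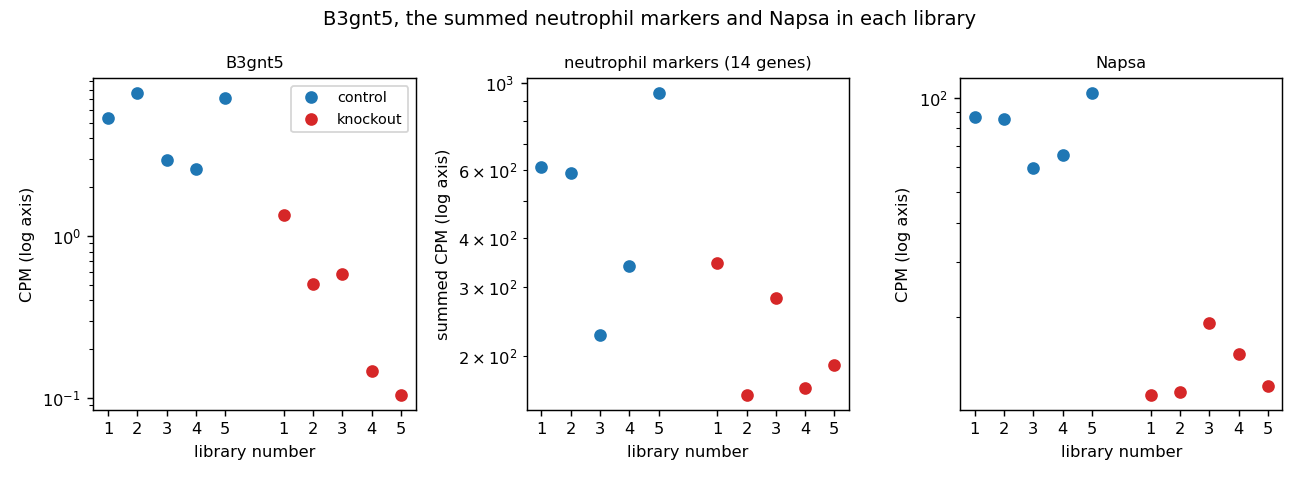
CPM of B3gnt5 (left), summed CPM of 14 tested neutrophil markers (middle) and CPM of Napsa (right) in control (blue) and knockout (red) libraries, on log axes. The neutrophil sums of the groups overlap, 226 to 942 CPM against 159 to 345 CPM, while those of B3gnt5 and Napsa do not, and all 3 are lower in controls 3 and 4 than in the other controls.

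Marker sums of T and NK, dendritic, and B and plasma cells, of classical monocytes and of resident-like macrophages overlapped between the groups, and those of nonclassical monocytes did not. For the counts below, edgeR called 0.543% of all 14374 tested genes lower and 0.87% higher, and 2204 had an unadjusted p under 0.05. T and NK cell markers summed to 106 to 294 CPM in controls and 95.2 to 315 CPM in knockouts, and 1 of 22 tested genes, Cd4, rose (log2 fold change 1.13, edgeR adjusted p = 0.0223, up to 0.0599 once control 3, control 4 or knockout 4 was left out), while the other 21 had a negative log2 fold change, with a list median of -1.24. Cd4 made up most of the sum in knockouts 1, 4 and 5, with 184 of 196 CPM, 143 of 151 CPM and 86.5 of 95.2 CPM. The mean log2 CPM over the list ran from 1.31 to 3.27 in controls and stood at -0.69, 2.72, 1.32, -1.36 and -1.34 in knockouts 1 to 5. In the T and NK list DESeq2 called 2 genes lower and 1 higher, limma-voom called 0 lower and 1 higher, and 5 had an unadjusted p under 0.05. Dendritic cell markers summed to 919 to 1142 CPM and 712 to 1393 CPM. With edgeR 1 of 26, Dpp4, fell (-2.31, edgeR adjusted p = 0.0297), a call lost without any of control libraries 1 to 4 or knockout libraries 4 and 5 (adjusted p up to 0.0838). DESeq2 called 4 dendritic cell markers lower and limma-voom 2, and 7 had an unadjusted p under 0.05. B and plasma cell markers summed to 156 to 385 CPM and 71.4 to 566 CPM, with 0 of 8 called by edgeR, DESeq2 or limma-voom and 1 at an unadjusted p under 0.05. Nonclassical monocyte markers did not overlap in their sum, 1266 to 1922 CPM against 679 to 1182 CPM, and of 17 genes edgeR called 0, DESeq2 called 3 lower, limma-voom 1, and 6 had an unadjusted p under 0.05. Of 30 classical monocyte markers 12 fell and none rose, against 0.543% of all tested genes called lower. Ccr2, which the knockout removes, and Ly6c2, on which the 4 genes were chosen, are among the 12. Like the other lists, this one was chosen with earlier results of these data known, so its count is not independent of them. The median log2 fold change was -1.62 over the list, against -0.0034 over all tested genes. The list summed to 12468.5 to 23515 CPM in controls and 10468.5 to 16869.1 CPM in knockouts, with the uncalled Lyz2 alone at 7813 ± 2123 and 8671 ± 2397 CPM. The mean log2 CPM over the list ran from 5.75 to 6.71 in controls and from 3.63 to 4.84 in knockouts. Of 22 resident-like macrophage markers 5 rose (Gas6, Igf1, Folr2, Vsig4 and Cbr2), against 0.87% of all tested genes called higher, and none fell. The median of these markers was 0.70, and their sum was 40756 to 55645 CPM in controls and 40467 to 53560 CPM in knockouts. Only 2 of these markers passed without any one of controls 1 to 4 or without knockout 4, 3 without knockout 1 or 5, and 0 with the control pairs summed. The part of any of these cell types in the falls of the 4 genes was not tested.

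The genes around each locus and the families of the 4 genes were read from the same fit. Beside the 4 genes on the chromosome, in GENCODE M21 order, 16 tested neighbours were read, 2 on each side, and edgeR called 0 of them. At an unadjusted p under 0.05 there were 2, against 2204 of all 14374 tested genes. DESeq2 called 1 and limma-voom 0. Elmo1, next to Gpr141, stood at 0.36 on the log2 scale with an adjusted p of 0.121. The antisense gene Gm15396 overlaps Napsa and held 10 or fewer counts in each control library and 0 in the knockouts. Counted without strand, Napsa had 2351 in place of 3269 counts in control library 1, and its log2 fold change was -2.60.

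Of 47 tested leukocyte G protein-coupled receptor genes other than Gpr141, 3 fell, 1 rose and 31 had a negative log2 fold change, with a median of -0.21. Over all tested genes 0.543% were called lower, 0.87% higher and 50.5% had a negative log2 fold change. Gpr35 fell from 116 ± 35.9 to 48.6 ± 9.67 CPM (log2 fold change -1.25, edgeR adjusted p = 0.0244) and the formyl peptide receptor gene Fpr2 from 29.9 ± 9.61 to 10.7 ± 4.37 CPM (-1.48, adjusted p = 0.0411). S1pr1, a sphingosine-1-phosphate receptor gene, rose from 13.6 ± 5.14 to 36.4 ± 5.83 CPM (1.42, adjusted p = 0.0167). None of the 3 falls was as deep as the -3.13 of Gpr141, a difference that was not tested. Gpr35 lost its call when control 1, control 2, knockout 4 or knockout 5 was left out (adjusted p up to 0.0659), Fpr2 without any library but control 5 and knockout 2 (up to 0.107), and S1pr1 without control library 4 (0.0509).

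Of 56 tested Dbl-family exchange factor genes other than Arhgef37, 2 fell, 2 rose and the median was -0.06. By comparison, 0.543% of all tested genes were called lower and 0.87% higher. Tiam1, which acts on Rac, fell from 17.3 ± 2.67 to 6.75 ± 1.45 CPM (log2 fold change -1.35, edgeR adjusted p = 0.00422), and this call held without any single library, with an adjusted p of up to 0.0165, and at 0.0379 with the control pairs summed. Mcf2l fell from 2.07 ± 1.88 to 0.308 ± 0.0624 CPM (-2.74, adjusted p = 0.0392), while Arhgef7 rose from 85.1 ± 4.42 to 122 ± 15.9 CPM (0.53, adjusted p = 0.0262) and Arhgef5 from 1.75 ± 0.369 to 4.74 ± 2.02 CPM (1.43, adjusted p = 0.0477). Mcf2l kept its call only without control library 3 or 5 (adjusted p otherwise up to 0.107), Arhgef5 only without knockout library 3 (up to 0.126), and Arhgef7 lost it without any of controls 1 to 4 or knockouts 4 and 5 (up to 0.0789).

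Of 21 tested genes of aspartic proteases, lysosomal cathepsins and their inhibitors other than Napsa, none fell and 1 rose, with a median of -0.11. The shares called over all tested genes were 0.543% lower and 0.87% higher. The cysteine cathepsin gene Ctsf rose from 37.1 ± 11.2 to 86.5 ± 21.8 CPM (log2 fold change 1.22, edgeR adjusted p = 0.0292), a call lost without controls 2, 3 or 4 or knockouts 1, 4 or 5 (adjusted p up to 0.0775). The aspartic protease genes of the list did not pass: Ctsd stood at 0.50 (adjusted p = 0.164), Ctse at -0.99 (0.127) and Bace2 at -2.25 (0.137). DESeq2 called 2 genes of the list lower and edgeR called 0. An unadjusted p under 0.05 in either direction was found for 4 genes, against 2204 of all 14374 tested genes. Ren1, Pga5 and Pgc, 3 genes of the list, had 0 counts in all 10 libraries.

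Of 26 tested glycosphingolipid synthesis genes, edgeR called 2 lower and 0 higher, with a median of -0.06, 4 at an unadjusted p under 0.05, and 1 higher with DESeq2. Among all 14374 tested genes, edgeR called 0.543% lower and 0.87% higher, and 2204 had an unadjusted p under 0.05. The sialyltransferase gene St3gal4 fell from 63.5 ± 6.84 to 42.5 ± 5.71 CPM (log2 fold change -0.58, edgeR adjusted p = 0.0310), and St3gal5, which makes the ganglioside GM3 from lactosylceramide, the substrate that B3gnt5 also uses, from 11.3 ± 3.08 to 5.14 ± 1.5 CPM (-1.14, adjusted p = 0.0497). St3gal4 kept its call only without control library 3 or knockout library 3 (adjusted p otherwise up to 0.0901), and St3gal5 only without knockout library 3 (up to 0.122). Of the enzymes that build lactosylceramide, Ugcg stood at -0.22 with an adjusted p of 0.728 and B4galt5 at -0.20 with 0.611. The 9 tested genes of other beta-1,3-N-acetylglucosaminyltransferases had 0 calls with edgeR, 1 higher with DESeq2 and with limma-voom, 2 at an unadjusted p under 0.05 and a median of 0.17, with B3gnt3 at 0.95 (adjusted p = 0.137) and B3gnt2 at 0.83 (0.166).

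**Figure D5:**
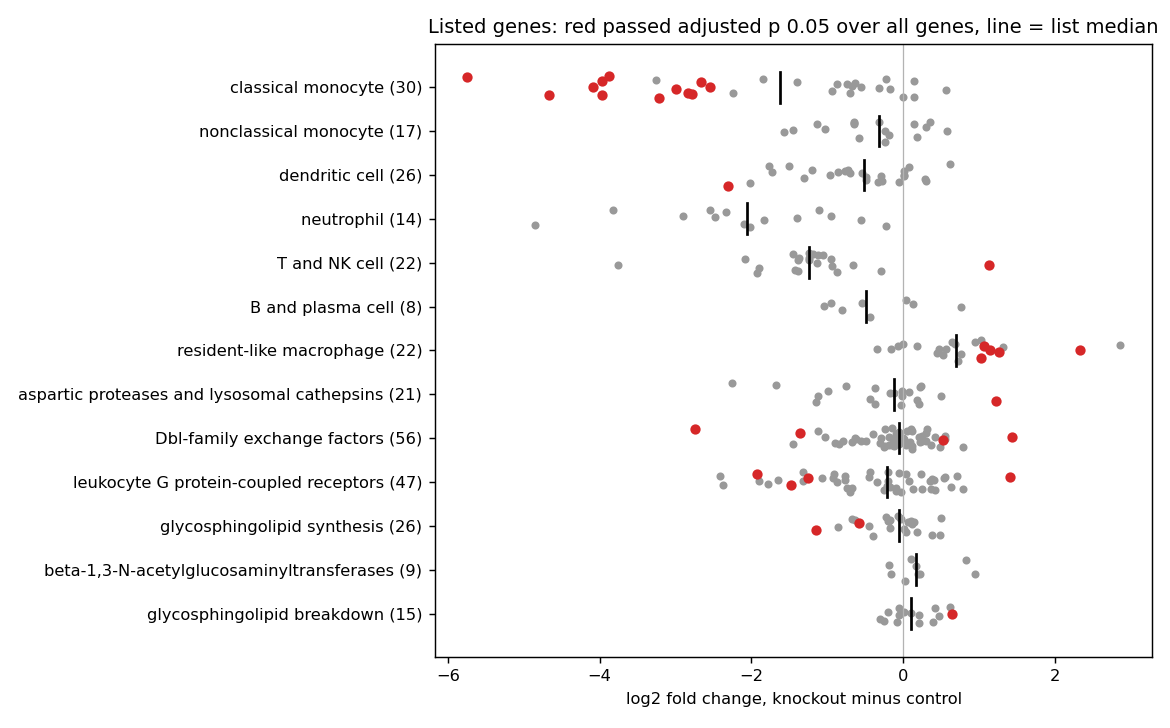
Log2 fold change of every tested gene of 13 lists (points, number tested in parentheses), with genes past an adjusted p of 0.05 in red and the list median as a black line; vertical position within a list is arbitrary. Classical monocyte markers hold 12 red points on the left, Ccr2 and Ly6c2 among them, while the family lists of the 4 genes have medians between -0.21 and 0.17 and few red points.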

How the data were processed

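RNA-seq counts of 10 libraries of F4/80+ tumour macrophages were analysed, 5 control (Ccr2RFP/+) and 5 Ccr2 knockout. The deposited values were whole-number counts per gene; per the submitters' processing notes, STAR and GRCm39 were used, while neither a STAR version nor an annotation is given in the sources used here. Directional libraries were made from polyadenylated RNA, per the labels' protocols, and the reverse-strand column was used. The summary rows that name no gene were left out, and multimapping reads were not counted for genes. A series table with 10 columns of values that carry no sample names was not used. Of the identifiers, 52083 matched a symbol and 3276 did not.

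The test was that of edgeR 4.0.16 under R 4.3.3 (filterByExpr with a minimum count of 10, TMM, quasi-likelihood F-test, Benjamini-Hochberg adjustment over 14374 genes, threshold 0.05). CPM used TMM-scaled library sizes, log2 CPM a prior count of 2, and the SE is the log2 fold change divided by the square root of F. The test was checked on simulated data. The 4 genes and all 14 lists were chosen with earlier results of these data known. Named were the 4 genes, Ly6c2, Ccr2, up to 4 called genes of a list per direction, the 5 closest profiles of each gene with a mean of at least 2 CPM, the neighbours, and genes at issue in small counts; some genes this rule would name are not reported here; S100a8, S100a9, Ugcg, B4galt5, B3gnt2, B3gnt3, Ctsd, Ctse, Bace2, Adgre1 and Csf1r were chosen besides. Exon lengths and gene order came from GENCODE M21 on GRCm38. Alternatives were other size factors, DESeq2 1.42.0, voom in limma 3.58.1, other filters and thresholds, unstranded counts, the replicate number as a block, alike libraries summed, 1 library left out, and other scales of the correlation. Figures used matplotlib 3.10.9.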

Additional observations from a re-analysis of the deposited data

Results flagged for a closer look

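In groups of 5 libraries, 44 genes were checked in both genotypes for 1 library far from the rest, which gave 6 of 88 groups; chance gives about 1 in 20. Among knockouts library 3 stood apart with 3.29 CPM of Mcemp1 (others 1.12 to 1.69), 4.16 CPM of Rhou (others 1.37 to 1.54) and 16.2 CPM of Lsr (others 6.24 to 6.81). These 3 genes are among the closest profiles to Napsa, whose own highest knockout value was in the same library, at 19.2 CPM. Those profiles were picked over these same libraries, so the shared library is partly built in. Among controls library 5 stood apart with 966 CPM of Chil3 (others 181 to 255), 201 CPM of Folr2 (others 102 to 129) and 20.1 CPM of Vsig4 (others 5.52 to 6.87). None of the 4 genes had such a library in either group.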

How the results depend on the processing

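The log2 fold changes of the 4 genes stayed negative under every alternative run, and with 1 library left out they ranged from -2.67 to -2.41 for Napsa, -4.14 to -3.69 for Arhgef37, -3.34 to -2.93 for Gpr141 and -3.92 to -2.98 for B3gnt5, which stood at -4.00 with limma-voom. The number of genes called lower and higher was 78 and 125. It was 388 and 412 with DESeq2, 179 and 267 with limma-voom, 17 and 12 with the control pairs summed, and 4 and 4 with knockouts 4 and 5 summed too, an alternative chosen after seeing the data. At an adjusted p of 0.01 it was 17 and 25, and at 0.1 it was 173 and 271. With 1 library left out, 25 (without control 2) to 136 (without knockout 3) genes were lower and 37 to 135 higher. With the replicate block, 25 were lower and 30 higher; 50 of the 203 calls were kept. The numbers do not pair the libraries: same-numbered libraries had correlations of deviations of 0.34, 0.08, -0.53, 0.18 and -0.22, and 1 of 5 controls correlated best with its own number.

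The r with Ly6c2 with 1 library left out ranged from -0.76 to -0.24 (control) and -0.13 to 0.55 (knockout) for Napsa, -0.70 to 0.77 and -0.33 to 0.83 for Arhgef37, 0.18 to 0.97 and 0.73 to 0.98 for Gpr141, and -0.60 to -0.04 and -0.67 to 0.54 for B3gnt5. It changed sign for Napsa without knockout 1 (-0.11) or 3 (-0.13), for Arhgef37 without control 1 (-0.70) or knockout 3 (-0.28) or 4 (-0.33), and for B3gnt5 without knockout 1 (0.54). The cause was not tested. B3gnt5 and Arhgef37 rest on as few as 4 and 7 counts in a knockout library, which limits their r there. With the control pairs and knockouts 4 and 5 summed, 2 classical monocyte markers, Ccr2 and Gm9733, were called lower in place of 12. Of the called genes of the 4 genes' families, only Tiam1 passed with the control pairs summed, and at an adjusted p of 0.0965 it did not pass with knockouts 4 and 5 summed too.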
